A study of Homo sapiens with 12 samples.

Results

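MSX2, its paralogue MSX1 and 8 genes of the bone morphogenetic protein (BMP) and inhibitor of DNA binding (ID) pathway were followed across HCT116, a line of human colorectal cancer that carries an oncogenic RAS allele, and 2 lines recombined at that allele. The 10 genes are MSX2, MSX1, the ligand genes BMP2, BMP4 and BMP7, the target genes ID1, ID2 and ID3, and the feedback genes SMAD6 and SMAD7. All probe sets annotated with these symbols alone were taken, which gave 21 of the 54675 probe sets on the array. A gene passed the filter on low values when the mean of any group reached 6 on the log2 scale, as 9 of the 10 genes and 12852 of 19775 genes in all did. MSX2 was selected on its measured difference between HCT116 and both recombined lines, and the other members were added as genes of the pathway around it when results of these arrays were already known. For that reason the differences of the members from HCT116 are given as a description with no test.

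RNA was hybridised to Affymetrix GeneChip arrays, and the 12 arrays form 4 groups of 3. The HCT116 control cells, labelled ctl, received vehicle or 25 ng/ml doxycycline and were taken on day 3, while Hke3 and Hkh-2 were cultured in basal condition. All were grown in DMEM with 10% FBS. Doxycycline switches on inducible hairpin vectors in other HCT116 cells of the study, and the labels do not say what the ctl cells carry. Hke3 and Hkh-2 were made from HCT116 by homologous recombination and each is a single clone, so allele and clone cannot be told apart. The labels give no day and no vehicle for these lines, so culture handling cannot be told apart from allele or clone either. The sources differ on whether the mutant allele was deleted or replaced by the wild-type allele, and do not settle whether the ctl arrays are the parental cells. No source ties the 3 arrays of a group to 3 cultures, so a p-value here covers only array-to-array spread, possibly a technical one.

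BMP ligands bind pairs of type I and type II serine/threonine kinase receptors. The type I receptor then phosphorylates SMAD1, SMAD5 or SMAD9, which enters the nucleus with SMAD4 and switches on target genes. ID1, ID2 and ID3 are classical targets, and their proteins hold E proteins away from DNA. SMAD6 and SMAD7 are induced by the same signal and inhibit it, and MSX1 and MSX2 are homeodomain transcription factors that act downstream of BMPs in many developing tissues. In colon, BMP signalling is strongest toward the differentiated end of the crypt.

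The stretch of 250 bases before the RefSeq transcription start (GRCh38.p14) was read for the 8 members with an entry, which excludes BMP2 and BMP7. It is shown for MSX2, the member with the largest difference, for its paralogue MSX1, and for ID2 and ID3, target genes that were higher in Hkh-2 than in Hke3. Capitals mark CCAAT or its reverse complement ATTGG, the box bound by the factor NF-Y, and CAGAC or GTCTG, the SMAD-binding element.
MSX2, chr5:174724332-174724581, strand +: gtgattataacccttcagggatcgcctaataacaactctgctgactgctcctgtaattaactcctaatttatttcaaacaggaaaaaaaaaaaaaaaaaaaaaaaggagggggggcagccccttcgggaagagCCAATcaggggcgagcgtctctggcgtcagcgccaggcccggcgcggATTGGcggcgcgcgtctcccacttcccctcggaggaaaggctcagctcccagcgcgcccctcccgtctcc
MSX1, chr4:4859415-4859664, strand +: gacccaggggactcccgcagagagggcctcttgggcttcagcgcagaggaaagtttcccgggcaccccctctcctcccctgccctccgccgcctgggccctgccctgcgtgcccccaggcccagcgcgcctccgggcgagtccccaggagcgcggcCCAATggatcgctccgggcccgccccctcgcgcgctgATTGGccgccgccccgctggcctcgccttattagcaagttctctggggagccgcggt
ID2, chr2:8681806-8682055, strand +: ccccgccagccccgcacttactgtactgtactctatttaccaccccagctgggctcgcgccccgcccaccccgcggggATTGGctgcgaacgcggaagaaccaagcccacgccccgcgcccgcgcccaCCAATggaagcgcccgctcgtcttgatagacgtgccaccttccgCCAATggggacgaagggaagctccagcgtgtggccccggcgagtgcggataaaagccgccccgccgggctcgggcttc
ID3, chr1:23559502-23559751, strand -: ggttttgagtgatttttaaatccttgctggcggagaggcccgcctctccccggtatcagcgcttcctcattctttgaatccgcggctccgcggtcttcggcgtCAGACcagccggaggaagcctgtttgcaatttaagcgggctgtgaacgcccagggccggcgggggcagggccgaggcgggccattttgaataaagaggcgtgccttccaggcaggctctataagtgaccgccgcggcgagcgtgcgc
CCAAT on either strand was present 2 times in the MSX2 and 2 times in the MSX1 promoter, 3 times in the ID2 promoter and not in the ID3 promoter, and 32% of all 35116 promoter windows of this length hold it. The CCAAT box was chosen for display after the sequences were seen. CAGAC or GTCTG was found 1 time in the ID3 promoter and in 38% of all windows. GGCGCC, a GC-rich element bound by SMADs, and TAATTG or CAATTA, a core bound by homeodomains, were in none of these 4 windows, against 16.4% and 6.7% of all. Over all 12 windows of the 8 members, GGCGCC was in 1 (BMP4), TAATTG or CAATTA in 1 (SMAD7), CAGAC or GTCTG in 5 (BMP4, ID3 and SMAD7) and CCAAT in 4 (ID1, ID2, MSX1 and MSX2). A match describes letters only.

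The arrays carried the marks of an epithelial line. EPCAM had group means of 13.09 to 13.24 and KRT18 of 14.01 to 14.54 on the log2 scale, while the intestinal genes VIL1 (6.45 to 6.57) and CDX2 (6.45 to 6.89) lay little above the background value of 6. Of the 7 epithelial markers, limma at an adjusted p under 0.05 called 2 higher and 2 lower in vehicle than in Hke3. It called 4 markers lower in vehicle than in Hkh-2. The matching shares over all 12852 genes were 24.6% and 23.2% for Hke3 and 21.7% for Hkh-2. The recombined lines also differed in these markers, with 4 of the 7 called lower in Hke3, beside a share of 23.5% over all genes. The adhesion gene CDH1 had vehicle minus line differences of -0.83 and -1.17 and KRT19 of -0.53 and -0.64. KRT8 had 0.21, not called, against Hke3 and -0.59 against Hkh-2, and KRT18 had 0.20 and -0.33. CDX2 was higher in vehicle than in Hke3 by 0.44 and did not differ from Hkh-2 (0.00, not called). Of 6 markers of other cell types, 4 did not pass the filter, among them the immune marker PTPRC (3.80 to 3.94) and the endothelial marker CDH5 (3.90 to 4.13). The fibroblast gene COL1A1 had group means of 8.19 to 8.43 and was not called, and the endothelial gene PECAM1, at 6.56 to 6.86, was higher in vehicle than in Hke3 and Hkh-2 by 0.24 and 0.29 (limma, adjusted p = 0.0182 and 0.00724). The part of these markers in the differences was not tested. Replicate 2 of HCT116 vehicle and replicate 3 of Hke3 lay away from their groups, with deviations across genes that correlated at r = 0.683, and are called the arrays that stood apart. Actin probe sets differed in the 5′ minus 3′ log2 value, an index of RNA integrity, which was -0.855 to -0.48 in vehicle, -0.942 to -0.706 in doxycycline, -0.575 to -0.229 in Hke3 and, in Hkh-2, -0.324 to -0.232. The same index of GAPDH overlapped among all groups, from -0.033 to 0.114. The part of this index in the differences was not tested. In bulk RNA, fewer cells that express a gene and less RNA per cell cannot be told apart.

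MSX2, which encodes a transcriptional repressor of the muscle segment homeobox family, was several-fold higher in HCT116 than in both recombined lines. With probe set 210319_x_at, the log2 values were 11.86, 12.07 and 12.05 with vehicle and 11.82, 11.82 and 12 with doxycycline. They were 8.84, 9.02 and 8.76 in Hke3 and 8.49, 8.45 and 8.74 in Hkh-2. Every HCT116 array lay above every array of both lines, and each Hke3 array above each Hkh-2 array. Vehicle exceeded Hke3 by 3.12 (standard error 0.102), or 8.71-fold, and Hkh-2 by 3.43 (standard error 0.102), or 10.8-fold. These were the differences ranked 6 and 8 from the highest of 12852 genes. MSX2 was selected on these differences, so the ranks only describe that choice. Probe set 205555_s_at gave 3.09 and 3.41, with Hkh-2 arrays at 7.57 to 7.82, Hke3 at 7.85 to 8.21 and vehicle at 11.11 to 11.16. The third probe set, 205556_at, lay at 3.04 to 3.69 on all arrays, near background, and gives no level. Both probe sets that measured MSX2 have a suffix of the kind that may bind several transcripts.

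MSX1, the closest relative of MSX2, was higher in both lines than in HCT116. Probe set 205932_s_at read 11.58, 11.60 and 11.96 with vehicle and 11.63, 11.54 and 11.92 with doxycycline. In Hke3 it read 12.37, 12.24 and 12.28, and in Hkh-2 12.59, 12.56 and 12.52. No recombined array overlapped an HCT116 array, and vehicle minus Hke3 was -0.58 and vehicle minus Hkh-2 -0.84 (standard error 0.113 each). The second probe set, 228473_at, gave smaller differences of -0.53 and -0.18, with overlapping arrays in both. Hke3 and Hkh-2 differed in MSX1 by -0.26 (95% interval -0.50 to -0.01), which did not pass the test (limma, adjusted p = 0.0869), and did so without vehicle replicate 3 (adjusted p = 0.0456), while 228473_at gave 0.35 in the opposite direction with overlapping arrays.

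**Figure D1:**
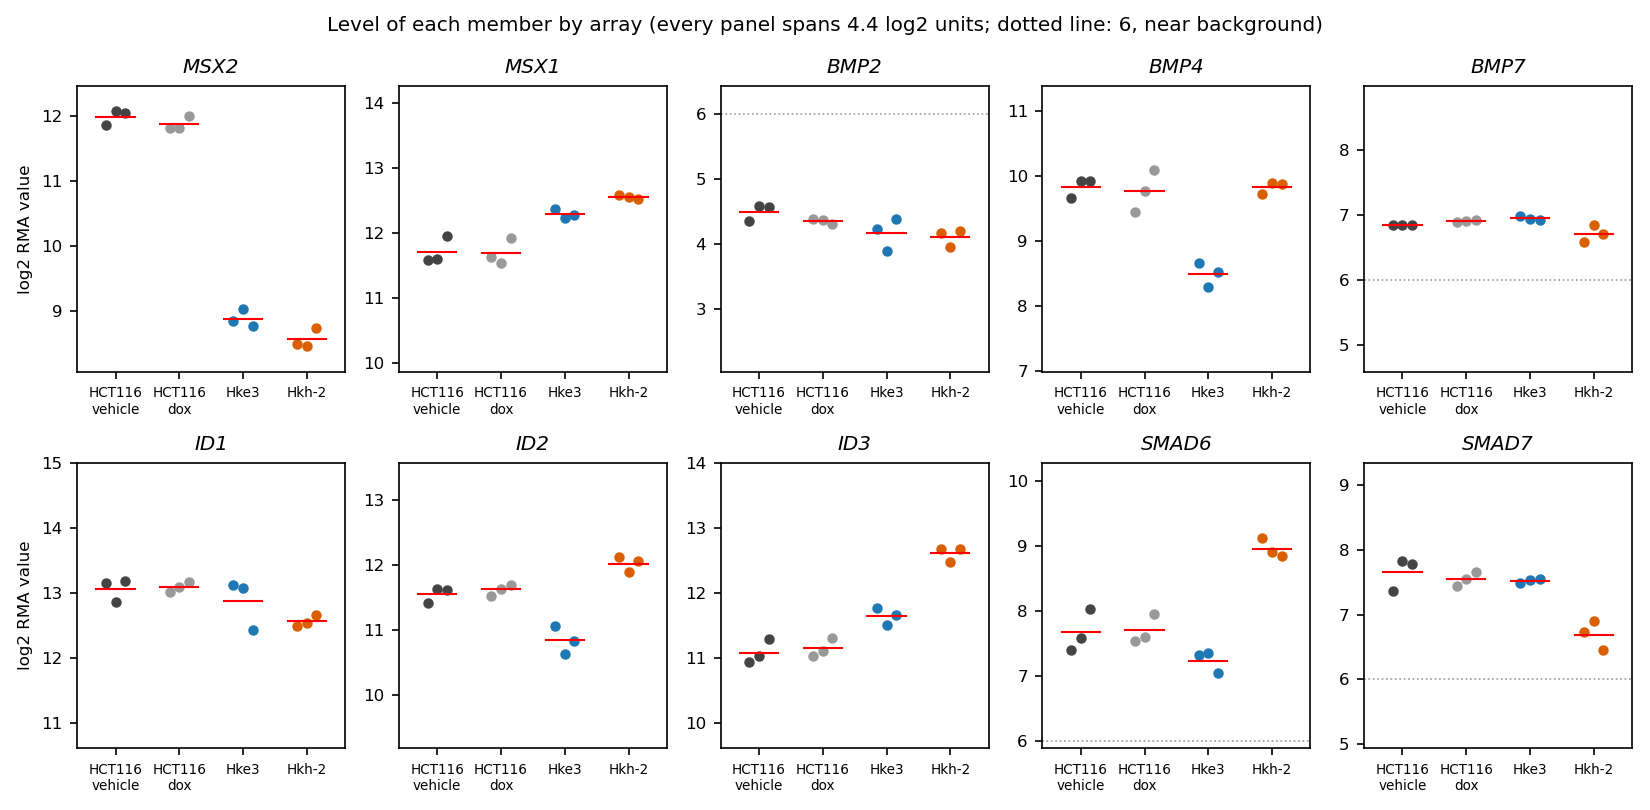
Log2 RMA value (y axis) of each of the 10 genes on the 12 arrays by group (x axis), from the probe set with the highest mean. Points are arrays, red lines group means, and the dotted line is 6, below which values are near background. MSX2 has means of 11.99 with vehicle, 8.87 in Hke3 and 8.56 in Hkh-2, MSX1 is higher in both lines than in HCT116, and BMP4 is low in Hke3 alone.

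Among the ligand genes, BMP4 was lower in Hke3 than in all other groups, and BMP2 was near background throughout. BMP4, a close relative of BMP2, had log2 values of 9.66, 9.91 and 9.91 with vehicle and 9.44, 9.76 and 10.08 with doxycycline. In Hkh-2 it was 9.71, 9.88 and 9.87, but in Hke3 8.65, 8.28 and 8.51. The Hke3 arrays lay below all others, and Hkh-2 overlapped both HCT116 groups. Vehicle minus Hke3 was 1.35 and vehicle minus Hkh-2 was 0.01 (standard error 0.145 each). BMP4 was lower in Hke3 than in Hkh-2 by a fitted difference of -1.34 (2.53-fold, 95% interval -1.65 to -1.02, limma, adjusted p = 1.22e-05).

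BMP7, a second ligand gene, was lowest in Hkh-2 by an amount that depended on the probe set. Group means over its 4 probe sets lay between 5.29 and 6.95, below or little above the background value of 6. Probe set 211260_at read 6.85 on all 3 vehicle arrays, 6.89 to 6.92 with doxycycline, 6.92 to 6.99 in Hke3 and 6.58, 6.85 and 6.70 in Hkh-2. Hkh-2 overlapped vehicle, and Hke3 was 0.24 higher than Hkh-2 (limma, adjusted p = 0.0212). This call was lost without Hke3 replicate 1 (0.22, adjusted p = 0.0726) or 2 (0.24, adjusted p = 0.0535), and without Hkh-2 replicate 1 (0.17, adjusted p = 0.0973) or 3 (0.24, adjusted p = 0.0562). Probe set 209590_at showed a wider gap, with Hkh-2 arrays at 5.65 to 5.71, Hke3 at 6.37 to 6.44 and vehicle at 6.51 to 6.64. Since Hkh-2 is near background there, Hke3 exceeded it by at least 0.41 and vehicle did so by at least 0.56. Probe sets 209591_s_at and 211259_s_at were likewise lowest in Hkh-2, with means of 5.29 and 6.05. Vehicle minus Hke3 was -0.10 by 211260_at but 0.15 to 0.67 by the other 3 probe sets, so its direction depended on the probe set. BMP2, whose 2 probe sets ranged from 3.74 to 4.80 over all arrays, did not pass the filter and was not tested.

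The 3 ID genes, which encode dominant negative partners of E proteins, showed 3 different patterns. ID2, by probe set 201565_s_at, read 11.41, 11.63 and 11.62 with vehicle, 11.07, 10.63 and 10.83 in Hke3 and 12.13, 11.89 and 12.06 in Hkh-2. Hke3 lay below and Hkh-2 above every HCT116 array, and doxycycline gave 11.53 to 11.70. Vehicle differed from Hke3 by 0.71 and from Hkh-2 by -0.47 (standard error 0.111 each), and probe set 201566_x_at gave 0.56 and -0.77. Hke3 minus Hkh-2 was -1.18 in ID2 (2.27-fold, 95% interval -1.42 to -0.94, limma, adjusted p = 3.46e-06).

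ID3 was higher in both lines than in HCT116, and most in Hkh-2. It read 10.94, 11.03 and 11.29 with vehicle, 11.03, 11.11 and 11.31 with doxycycline, 11.77, 11.51 and 11.65 in Hke3 and 12.67, 12.47 and 12.67 in Hkh-2. The arrays of Hke3 overlapped neither those of HCT116 nor those of Hkh-2. Vehicle minus Hke3 was -0.56 and vehicle minus Hkh-2 was -1.52 (standard error 0.111 each), the latter 2.88-fold. Hke3 was below Hkh-2 by a fitted difference of -0.96 (1.95-fold, 95% interval -1.20 to -0.72, limma, adjusted p = 2.1e-05).

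ID1, a widely used readout of BMP signalling, was lowest in Hkh-2. Its values were 13.15, 12.87 and 13.19 with vehicle, 13.01, 13.10 and 13.17 with doxycycline, 13.12, 13.08 and 12.43 in Hke3 and 12.50, 12.54 and 12.66 in Hkh-2. Vehicle minus Hkh-2 was 0.50 without overlap, and vehicle minus Hke3 was 0.19 with overlap (standard error 0.154 each). The outlying Hke3 value belongs to Hke3 replicate 3, one of the arrays that stood apart, which lay 0.67 under the mean of the other Hke3 arrays. Without it vehicle minus Hke3 was -0.03, and without both arrays that stood apart it was 0.07. Without vehicle replicate 2 it was 0.30, and without Hke3 replicate 1 or 2 it was 0.32 or 0.29. Hke3 minus Hkh-2 was 0.31 in ID1 (95% interval -0.03 to 0.64, limma, adjusted p = 0.132), 0.18 without Hke3 replicate 1, and 0.53 without Hke3 replicate 3 (limma, adjusted p = 0.000936).

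The 2 feedback genes lay on opposite sides in Hkh-2, with SMAD6 highest and SMAD7 lowest there. SMAD6, by probe set 207069_s_at, read 7.40, 7.58 and 8.03 with vehicle, 7.53, 7.60 and 7.95 with doxycycline, 7.32, 7.35 and 7.04 in Hke3 and 9.13, 8.90 and 8.85 in Hkh-2. Hkh-2 was above all other arrays, and Hke3 lay just below vehicle. Vehicle minus Hkh-2 was -1.29 and vehicle minus Hke3 was 0.43 (standard error 0.158 each), the latter 0.26 without vehicle replicate 3. Hke3 was below Hkh-2 by a fitted difference of -1.72 in SMAD6 (3.31-fold, 95% interval -2.07 to -1.38, limma, adjusted p = 2.77e-06). The other 3 probe sets gave less, since 209886_s_at, near background in Hke3, was higher in Hkh-2 by at least 0.54, 213565_s_at gave -0.27 and 209887_at was near background on all arrays. Vehicle minus Hkh-2 also depended on the probe set, with -0.09 and overlapping arrays by 213565_s_at and -0.47 by the mean of all probe sets. By 209886_s_at, near background in vehicle too, Hkh-2 exceeded vehicle by at least 0.54.

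SMAD7, which encodes an inhibitor shared with TGF-beta signalling, was lowest in Hkh-2. Its log2 values were 7.36, 7.82 and 7.77 with vehicle, 7.44, 7.55 and 7.65 with doxycycline, 7.48, 7.53 and 7.55 in Hke3 and 6.73, 6.90 and 6.46 in Hkh-2. No Hkh-2 array overlapped the others, while Hke3 lay within HCT116. Vehicle minus Hkh-2 was 0.96 and vehicle minus Hke3 was 0.13 (standard error 0.129 each). Hke3 exceeded Hkh-2 in SMAD7 by 0.82 (1.77-fold, 95% interval 0.55 to 1.10, limma, adjusted p = 0.000269).

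**Figure D2:**
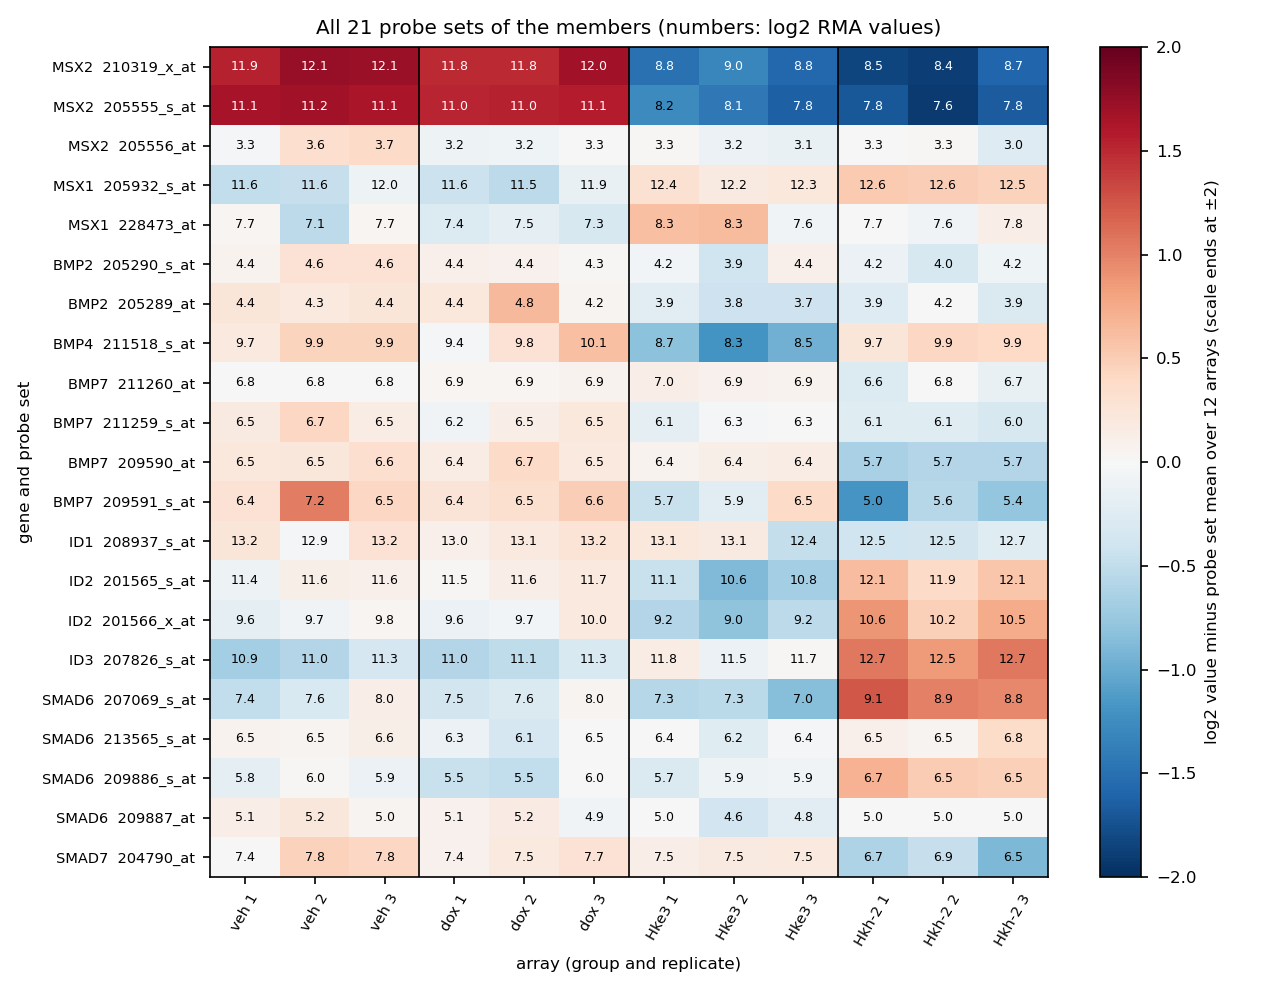
Every probe set of the 10 genes (rows) on the 12 arrays (columns), coloured by the log2 value minus the mean of that probe set over all arrays, with the log2 RMA value printed in each cell. The 2 measuring probe sets of MSX2 are red in HCT116 and blue in Hke3 and Hkh-2, ID2, ID3 and SMAD6 207069_s_at are red in Hkh-2, and the third MSX2 row stays near background at 3.04 to 3.69.

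The recombined lines differed from each other in 7 of these genes. In this comparison 3 of the 9 tested members were higher in Hke3 (MSX2, BMP7 and SMAD7) and 4 were lower (BMP4, ID2, ID3 and SMAD6), where 16.3% and 23.5% of all genes tested were higher and lower by limma at an adjusted p under 0.05. MSX1 and ID1 did not pass. The median difference over the 9 members was -0.26, beside -0.06 over all 12852 genes. That median is the value of MSX1, which was not called and was 0.05 by the mean of its probe sets. MSX2 differed by 0.31 (95% interval 0.09 to 0.53, limma, adjusted p = 0.0278), the smaller part of its distance from HCT116. Its call was lost without Hke3 replicate 1 (0.33, adjusted p = 0.0543) or 2 (0.24, adjusted p = 0.125), and without Hkh-2 replicate 1 (0.27, adjusted p = 0.0956) or 2 (0.26, adjusted p = 0.114). The 3-against-3 design has a smallest exact two-sided permutation p of 0.1 for any single gene, so these calls rest on the variance that limma shares across genes.

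**Figure D3:**
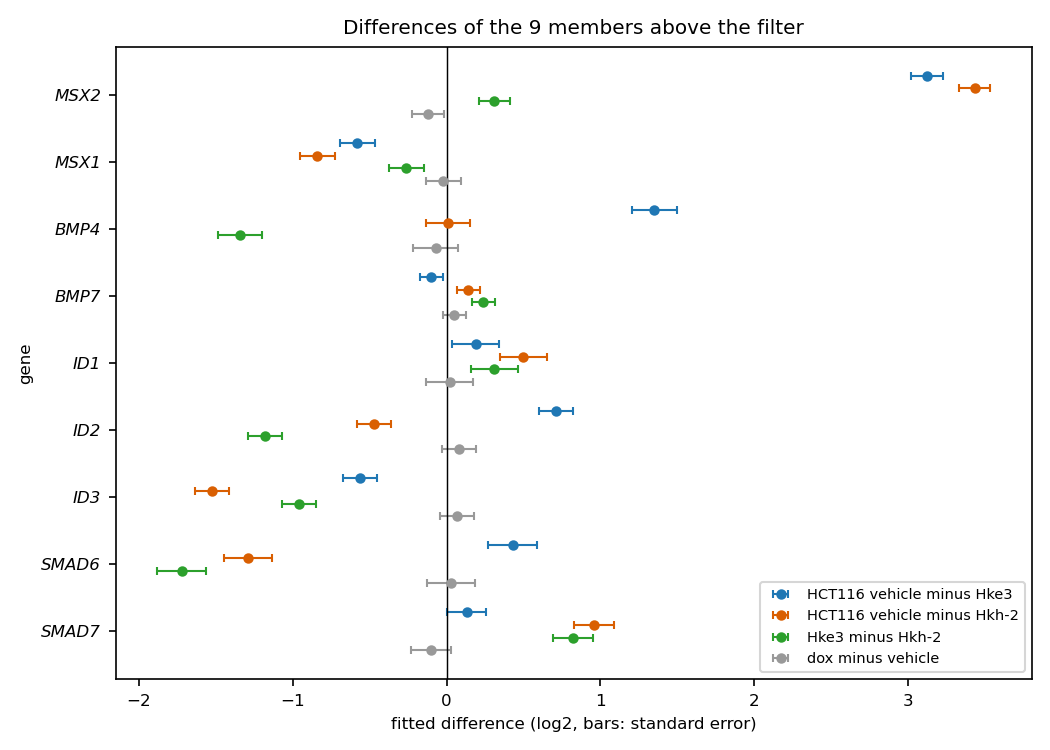
Fitted log2 difference (x axis) with its standard error for the 9 genes above the filter (y axis) in 4 comparisons. MSX2 stands at 3.12 and 3.43 against the recombined lines, the lines differ by as much as -1.72 in SMAD6, and all grey points for doxycycline lie between -0.12 and 0.08.

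No difference between doxycycline and vehicle was detected in these genes. Among the 12852 genes, 0% were called by limma (0 genes at an adjusted p under 0.05, 127 at an unadjusted p under 0.05), and none of the 9 members passed either threshold. The members' differences between doxycycline and vehicle ran from -0.12 in MSX2 to 0.08 in ID2, and their 95% intervals lay within -0.38 to 0.37. Of the 9 members, only BMP7 had vehicle and doxycycline arrays without overlap, with a difference of 0.05 that was not called. Full separation of 3 arrays from 3 has an exact two-sided permutation p of 0.1. The share of all genes with such a separation was not counted, so nothing is read from it.

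The wider pathway was measured with 57 further genes listed by role, of which 34 passed the filter, 20 did not and 3 had no probe set of their own. Among the 34, BMP6, CHRD and FST passed through some groups only, so a call in these is fixed in part by the filter, and counts over the other 31 are given too. Against Hke3, 8 were higher in HCT116 vehicle and 6 lower by limma at an adjusted p under 0.05, where 24.6% and 23.2% of all genes were, and over the 31 genes 7 and 5. Against Hkh-2, 3 were higher and 7 lower, where 14.3% and 21.7% were, and over the 31 genes 2 and 7. Between Hke3 and Hkh-2, 3 were higher and 5 lower, beside the background of 16.3% and 23.5%, and over the 31 genes 2 and 5. The balance of directions depended on the probe set rule and the arrays in the fit, with 6 higher and 2 lower by the mean of probe sets and 4 and 3 with the compared groups alone. The count of 8 became 13 without Hke3 replicate 3 and 18 without both arrays that stood apart. The median difference of the 34 was 0.05, 0.00 and -0.05 in these comparisons, beside 0.05, -0.02 and -0.06 over all genes. Doxycycline called 0 of the 34, and 2 had an unadjusted p under 0.05.

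Called in the same direction against both lines were 3 genes higher in HCT116 and 4 lower of the 34, or 2 and 4 of the 31, where 9.04% and 12.6% of all genes were. Both comparisons use the vehicle arrays. BAMBI, which encodes a decoy receptor that blocks BMP signalling, was higher by 1.33 and 1.20 (standard error 0.0926 each, limma, adjusted p = 1.45e-07 and 4.45e-07) against Hke3 and Hkh-2. ACVR2B, a type II receptor gene, was higher by 0.52 and 0.48, and the ligand gene BMP6, near background in both lines, by at least 0.85 in each. SMURF2, whose product marks SMADs and receptors for degradation, had vehicle minus line differences of -1.89 and -1.11 (standard error 0.121 each, limma, adjusted p = 6.43e-08 and 1.14e-05), and only -0.36 against Hkh-2 by its probe sets that do not bind several transcripts. The same differences were -0.80 and -0.42 in the type I receptor gene ACVR1 and -0.53 and -0.35 in TWSG1, an extracellular modulator gene. PPM1A, a SMAD phosphatase gene, had -0.31 and -0.36 in its highest probe set, but the mean of its probe sets gave 0.12 against Hkh-2.

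The remaining pathway genes named here were called against 1 line or between the lines. SMAD1, which carries the signal to the nucleus, was 2.10-fold higher in Hkh-2 than in HCT116 vehicle (vehicle minus Hkh-2 of -1.07, limma, adjusted p = 5.59e-07), and vehicle minus Hke3 was 0.05 and did not pass. Its Hke3 minus Hkh-2 difference was -1.12 (limma, adjusted p = 4.73e-07). Vehicle minus Hke3 was -0.63 in the type II receptor gene BMPR2 (-0.21 and not called by the mean of its probe sets) and 0.70 in the nuclear repressor gene SKI. Hke3 minus Hkh-2 was 0.34 in BMPR2 (limma, adjusted p = 0.0534, and 0.00876 without Hke3 replicate 3) and -0.58 in SKI (limma, adjusted p = 0.00333), but -0.13 and not called by the mean of the SKI probe sets. FST, the follistatin gene, near background in HCT116 and Hkh-2, exceeded both in Hke3 with a log2 difference of at least 0.54. ACVRL1, a type I receptor gene, was higher in vehicle than in Hke3 by 0.34. RGMB, a BMP co-receptor gene, had a Hke3 minus Hkh-2 difference of -0.31 (limma, adjusted p = 0.0215), a call lost without Hke3 replicate 2 (-0.23, adjusted p = 0.105) or Hkh-2 replicate 1 (-0.23, adjusted p = 0.0982).

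Some directions turned with the probe set. Vehicle minus Hkh-2 in ACVR2A, a type II receptor gene, was -0.31, but 0.05 by the mean of its probe sets. In SMAD4, the common SMAD gene, it was -0.25 (limma, adjusted p = 0.0355). By probe sets that do not bind several transcripts it was 0.31, called in the opposite direction (limma, adjusted p = 0.00671). The call of -0.25 was lost without vehicle replicate 1 or 2, doxycycline replicate 2 or Hkh-2 replicate 1 or 3 (-0.18 to -0.27). Vehicle minus Hke3 in the ligand gene BMP8B was 0.35, but -0.04 by the mean of its probe sets. Its Hke3 minus Hkh-2 difference of -0.23 (limma, adjusted p = 0.0167) was not called without Hke3 replicate 1 (-0.23, adjusted p = 0.0509) or Hkh-2 replicate 2 (-0.18, adjusted p = 0.0884).

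**Figure D4:**
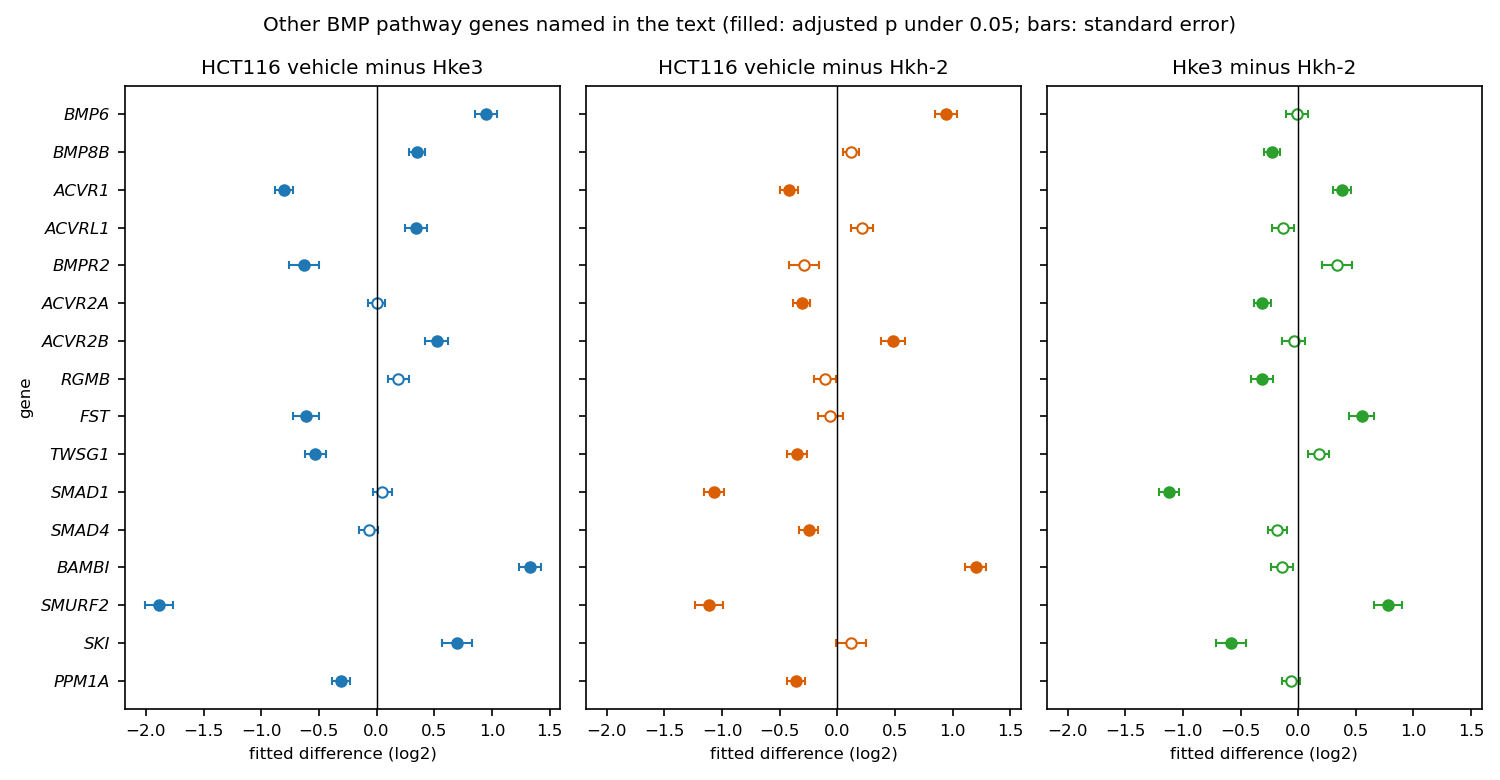
Fitted log2 difference (x axis) with its standard error for the 16 other pathway genes named in the text (y axis), in 3 panels for the comparisons among HCT116 vehicle, Hke3 and Hkh-2. Filled points have an adjusted p under 0.05. BAMBI lies to the right and SMURF2 to the left against both lines, and SMAD1 lies at -1.07 against Hkh-2 and 0.05 against Hke3.

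The E proteins bind DNA as partners of tissue-specific factors and are held by ID proteins. TCF3 was higher in vehicle than in Hke3 by 0.53 (limma, adjusted p = 0.00115) but 0.06 by probe sets that do not bind several transcripts. Its Hke3 minus Hkh-2 difference of -0.34 (limma, adjusted p = 0.0199) was lost without Hke3 replicate 2 (-0.22, adjusted p = 0.0947) or Hkh-2 replicate 3 (-0.28, adjusted p = 0.0843). Vehicle minus Hke3 in TCF12 was -0.41 (limma, adjusted p = 0.039) and -0.05 by the mean of its probe sets, a call lost without vehicle replicate 2 (-0.25, adjusted p = 0.169), doxycycline replicate 1 or 2, Hke3 replicate 1 or 2 or Hkh-2 replicate 3. TCF4 did not pass the filter, at group means of 5.48 to 5.60.

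The genes with the array pattern most like that of MSX2, by Pearson r over the 12 arrays among 1249 genes whose group means span at least 1 log2 unit, were AP3S1 (r = 0.997), ANXA10 (0.996), ZBED2 (0.995), ITPRID2 (0.994) and ATG12 (0.994). All 5 were higher in HCT116 than in both lines, for instance ANXA10, with means of 12.41 with vehicle, 5.21 in Hke3 and 4.76 in Hkh-2. ANXA10 is near background in both lines and passed the filter through HCT116 alone, so the size of its gap is not given. For ID1, among 1250 genes, the nearest were ESF1 (r = 0.941), TACC2 (0.928), L3MBTL3 (0.920), GLIPR1 (0.915) and GJA3 (0.901). These r values describe 12 arrays in 4 groups. MSX2 was selected on its difference between HCT116 and both lines. That the genes most like it share this difference follows from the selection, and nothing further is read from it.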

How the data were processed

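The authors deposited log2 expression values per probe set made with RMA (background correction, normalization between arrays and summary of probes), for Affymetrix arrays of HCT116 control cells with vehicle or doxycycline, Hke3 and Hkh-2 (3 arrays each). Per the submitters' processing notes the tool was RMA, and neither its version nor its chip definition nor the arrays it took together are given in the sources used here. Array medians lay between 5.80 and 5.86, within-group correlations between 0.993 and 0.998, and 3 arrays a group limit the precision.

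Of 54675 probe sets, 41097 have 1 gene symbol, 1801 several and 11777 are unnamed here, and 41043 matched RefSeq by gene ID. For each gene the probe set of highest mean was used, and genes with a group mean of at least 6 in 1 group were fitted with limma 3.58.1 (R 4.3.3) over all 12 arrays, with Benjamini-Hochberg adjustment over all 12852 genes. The procedure was tried on simulated data for Hke3 minus Hkh-2 with independent errors on each array. That simulation does not cover the deviations shared by the arrays that stood apart. A group mean under 6 was called near background, and a difference from it given as "at least".

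The 10 members and the other lists were chosen with earlier results of these data known. All members are described with every probe set. Pathway genes are named when called in the same direction against both lines, or as 1 of up to 2 called genes per role with the largest difference in a comparison, and all E proteins are named. Likeness is Pearson r over 12 arrays for MSX2 and ID1. Alternatives were another probe set rule, filter, normalization, prior or sample set, the replicate number as a block, and leaving out each array. Same-numbered vehicle and doxycycline arrays deviated together (r = 0.228, 0.212 and 0.453), and the labels give the numbers. The recombined gene itself is not reported here. Promoter windows are from RefSeq GRCh38.p14.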

Additional observations from a re-analysis of the deposited data

Results flagged for a closer look

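The difference between the recombined lines was itself tested with limma, as Hke3 minus Hkh-2, and the following genes passed at an adjusted p under 0.05, so that their differences from HCT116 differ between Hke3 and Hkh-2. Among the members these were SMAD6 (-1.72), BMP4 (-1.34), ID2 (-1.18), ID3 (-0.96), SMAD7 (0.82), MSX2 (0.31) and BMP7 (0.24), all on the log2 scale. Among the other pathway genes they were SMAD1 (-1.12), SMURF2 (0.78), SKI (-0.58), FST (0.55, or at least 0.54 since Hkh-2 is near background and FST passed the filter through Hke3 alone), ACVR1 (0.38), ACVR2A (-0.31), RGMB (-0.31) and BMP8B (-0.23), and among the E proteins TCF3 (-0.34). Not all of these calls held by the mean of probe sets. By that rule ACVR2A gave -0.09 (limma, adjusted p = 0.452), TCF3 -0.10 (adjusted p = 0.198), SKI -0.13 (adjusted p = 0.183) and BMP8B 0.04 (adjusted p = 0.773). Each value compares 3 arrays of 1 clone with 3 of another, and the labels give no further clone of either line.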

How the results depend on the processing

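The named alternatives were applied to each result in turn. Of the pathway genes, 14 of 34 called against Hke3 became 9 of 20 with a group mean of at least 8, and 8 between Hke3 and Hkh-2 became 13 with every probe set tested and 18 without both arrays that stood apart (added after seeing the data). Leaving out 1 array gave 12 to 18 against Hke3, 9 to 12 against Hkh-2 and 7 to 13 between the lines. The 7 members called between the lines became 2 of 3 without probe sets that may bind several transcripts, and ranged from 5 to 8 with 1 array left out. Fewer genes were tested under the stricter filter and without those probe sets. Doxycycline gave 0 calls over all genes under all alternatives that compare those groups.

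Directions turned for BMP7 against Hke3 (0.26, mean of probe sets), BMP8B (-0.04 against Hke3 and 0.04 between the lines, mean), ACVR2A (0.05 by the mean and 0.41 without multi-transcript probe sets against Hkh-2, and 0.13 without them between the lines), SMAD4 (0.22 against Hke3 and 0.31 against Hkh-2 without them) and PPM1A (0.12 by the mean and 0.39 without them against Hkh-2, 0.53 and 0.78 between the lines). Some turned values were themselves called by limma. These were SMAD4 at 0.22 (adjusted p = 0.0352) and 0.31 (adjusted p = 0.00671), and PPM1A between the lines at 0.53 (adjusted p = 0.00209) and 0.78 (adjusted p = 0.00139). The turned values of BMP8B and ACVR2A, and of PPM1A against Hkh-2, were not called. The cause was not tested. MSX2 against Hke3 and Hkh-2 fell to 2.18 and 2.39 by the mean of its probe sets, which includes the one near background. SMAD6 against Hkh-2 moved from -1.29 to -0.47 by the mean of its probe sets. Between the lines the call of MSX2 was lost with the compared groups alone (adjusted p = 0.0518), as was that of BMP7 (adjusted p = 0.0693), and MSX1 was called (adjusted p = 0.0294).

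With the replicate number as a block, the counts were 13, 10, 8 and 0 for the pathway genes and 7 and 0 for the members, against 14, 10, 8, 0, 7 and 0 without it. Whether the numbers pair arrays across groups is not settled, and 6 of 12 arrays correlated best with an array of their own number. Same-numbered deviations of vehicle and Hkh-2 had r of -0.0459, 0.422 and 0.337, and those of vehicle and Hke3 0.355, -0.578 and -0.58. Doxycycline and Hkh-2 had 0.0762, 0.134 and 0.104. No called difference of a member between the lines turned direction.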

Other observations

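Probe set 213931_at, annotated with both ID2 and ID2B and so left out of the comparisons, had log2 means of 7.28 ± 0.0369 with vehicle, 7.39 ± 0.202 with doxycycline, 6.95 ± 0.340 in Hke3 and 8.07 ± 0.253 in Hkh-2 (SD, n = 3 each).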
